A study of Drosophila melanogaster with 3 samples.

Results

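Upstream peaks at non-divergent promoters were the CG15011-GFP binding peaks whose summit lay over 100 and up to 500 bp upstream of the nearest protein-coding transcription start site (TSS), where no other protein-coding gene started on the opposite strand within 1000 bp and was transcribed away from it. They numbered 638, or 19.7% of the authors' optimal set, which held 2599 further peaks, and they lay next to 569 genes. Members were chosen only by the position of the summit and the annotated TSSs, so their distance from the TSS and the absence of a divergent partner are not results. Of the further peaks 232 lay at core promoters (summit 0 to 100 bp upstream), 197 between divergent gene pairs at the same distances as the members, 211 downstream of the TSS by up to 500 bp, and 1959 farther than 500 bp from any protein-coding TSS.

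The data came from 3 biological replicates of 1 group: whole Drosophila melanogaster embryos, pooled male and female, aged 0 to 24 hours, from a transgenic line that stably expresses CG15011 with GFP fused at its C-terminal end. Chromatin immunoprecipitation followed by sequencing (ChIP-seq) recovers the DNA that lies near a protein, here from chromatin that was sonicated to pieces of 200 to 800 bp. A text label calls each sample an input control, whereas the deposited notes derive each peak list from that replicate's own alignment and a separate shared control alignment, which was not analysed here. No wild-type, untagged or untreated group is among the samples analysed, all tissues and stages of the embryo are mixed, and the read depth of each replicate is unknown because the peak lists hold no counts.

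A promoter is the DNA around the TSS on which RNA polymerase II and its general factors assemble. Just upstream of many active genes nucleosomes are depleted, and sequence-specific factors bind there. In Drosophila these factors include GAGA factor (Trl), which binds GA-rich elements, and DREF and M1BP, which bind the core promoters of many broadly expressed genes. Long runs of A alone or T alone are stiff and tend to disfavour nucleosomes, which need not hold for runs that mix both bases. A gene that shares its upstream DNA with a neighbour transcribed the other way has a divergent promoter, and a non-divergent promoter serves a single protein-coding direction.

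The sequences below show what the DNA at the summits looked like. All are read along the gene's strand from the dm6 assembly (RefSeq copy of Release 6). The first 4 reach 50 bp to each side of the strongest summits whose window held no untranslated region and lay on an arm from which sequence is printed, and capitals mark runs of at least 10 bases that are A or T only.
CG31145, chr3R:23669825-23669925, minus strand: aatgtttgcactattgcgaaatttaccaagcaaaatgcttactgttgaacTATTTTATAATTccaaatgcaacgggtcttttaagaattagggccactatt
ph-p, chrX:2137255-2137355, minus strand: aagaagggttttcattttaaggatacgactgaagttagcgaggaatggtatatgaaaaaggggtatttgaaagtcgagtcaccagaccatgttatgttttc
Gapdh2, chrX:15867932-15868032, plus strand: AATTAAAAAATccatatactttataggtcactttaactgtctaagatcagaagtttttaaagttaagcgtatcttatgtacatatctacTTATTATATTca
CG18549, chr3R:12449112-12449212, plus strand: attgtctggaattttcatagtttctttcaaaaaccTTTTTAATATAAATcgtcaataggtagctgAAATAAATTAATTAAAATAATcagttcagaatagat
The summits of CG31145, Gapdh2 and CG18549 were intergenic, and that of ph-p lay in an intron of the same gene, upstream of an internal TSS. GC content of these windows was 22.8% at CG18549, 23.8% at Gapdh2, 32.7% at CG31145 and 37.6% at ph-p. The ph-p window had no such run, and its longest A/T-only stretch was 7 bases.

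The next window is wider, 281 bp centred on the summit, and shows the surroundings of a strong member with a GA element on both sides and none near the summit. Capitals mark GAGAG on either strand (GAGAG or CTCTC). This window was chosen after the profile of GAGAG described further on was seen.
Ptpmeg2, chrX:9640674-9640954, minus strand: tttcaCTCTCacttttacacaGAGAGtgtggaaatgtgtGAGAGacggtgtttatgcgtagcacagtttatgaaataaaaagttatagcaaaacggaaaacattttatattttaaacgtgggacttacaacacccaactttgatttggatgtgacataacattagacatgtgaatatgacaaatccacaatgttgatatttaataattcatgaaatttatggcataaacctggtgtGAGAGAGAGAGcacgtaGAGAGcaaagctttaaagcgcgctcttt
GC content was 31.8% in the central 201 bp and 35.2% over the whole window, and the GA elements lay toward the ends. Of the 412 members that could be printed at this width, 26 had GAGAG at 50 to 140 bp on both sides of the summit and none within 50 bp of it. No such share is given for other peaks or for other promoters, so this count only describes the members.

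The extremes of base composition and the rare promoter elements are shown in a further set. Capitals in CG32196, the member with the lowest GC content of those that could be printed, mark A/T-only runs, and fkh, which had the highest, has none. Capitals in capu and in RpL28, a core promoter peak given for contrast, mark the DRE (TATCGATA), and in CG43163 they mark Motif 1 (GGTCACAC, here on the opposite strand).
CG32196, chr3L:18461157-18461257, minus strand: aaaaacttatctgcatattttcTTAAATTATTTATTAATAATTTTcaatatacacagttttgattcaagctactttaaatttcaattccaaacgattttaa
fkh, chr3R:28585449-28585549, minus strand: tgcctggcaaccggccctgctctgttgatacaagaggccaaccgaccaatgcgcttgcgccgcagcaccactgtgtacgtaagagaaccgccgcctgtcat
capu, chr2L:3880301-3880401, minus strand: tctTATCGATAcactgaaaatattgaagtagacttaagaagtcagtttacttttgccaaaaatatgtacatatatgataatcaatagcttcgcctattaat
RpL28, chr3L:3222972-3223072, minus strand: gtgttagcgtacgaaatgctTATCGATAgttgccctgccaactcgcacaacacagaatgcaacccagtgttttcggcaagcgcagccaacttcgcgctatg
CG43163, chr3L:8507259-8507359, minus strand: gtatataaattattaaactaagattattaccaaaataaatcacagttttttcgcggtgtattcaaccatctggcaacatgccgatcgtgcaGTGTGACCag
The fkh window, upstream of the gene of a forkhead transcription factor of the gut and salivary gland, was 60.4% GC, against 18.8% at CG32196.

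The strongest members carried signals that ranked among the highest of all peaks, and they did so in every replicate. The signal is the authors' value per peak and orders peaks only within a list, so each replicate is given by the rank of its own peak, with rank 1 the strongest of 30000. The strongest member lay 194 bp upstream of an internal TSS of px (FBgn0003175, 2R, 22514115 to 22514482, minus strand), a gene named for its part in wing vein patterning. Its pooled signal was 2082, and it ranked 14, 9 and 6 in replicates 1, 2 and 3. CG31145 (FBgn0051145) followed, 216 bp upstream, with a signal of 1963 and ranks 21, 12 and 9. The peak of ph-p (FBgn0004861), which encodes a Polycomb group subunit, lay 450 bp upstream with a signal of 1825 and ranks 10, 10 and 25. All 3 peaks were therefore among the top 25 of every replicate. The gene ph-p has a closely similar neighbouring copy, ph-d, and how reads that match both were treated was not given in the sources used here.

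Next in signal came Fkbp14 and Gapdh2. Fkbp14, a peptidyl-prolyl isomerase, had a signal of 1794 at 133 bp with ranks 16, 17 and 24. Gapdh2 (FBgn0001092), the glycolytic glyceraldehyde-3-phosphate dehydrogenase, had 1746 at 163 bp with ranks 27, 25 and 8. The other 20 of the 25 strongest members included gish, a casein kinase 1 of the gamma type (1567 at 166 bp), Atf3, a bZIP transcription factor (1514 at 230 bp), larp, an RNA-binding protein (1460 at 316 bp), Hex-A, a hexokinase (1373 at 194 bp), aay, a phosphoserine phosphatase (1165 at 180 bp), and for, a cGMP-dependent protein kinase (1163 at 339 bp). CG18549 ranked 18, 21 and 18, the smallest spread of places among the 25 strongest. At the other end, fne, CG15706 and FER had signals between 158.0 and 158.4, and FER ranked 20825 in replicate 1 but 2819 and 2481 in the others.

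Of the 2291 pooled peaks that met the same positional rule, 638 (27.8%) were in the optimal set, against 10.8% of all 30000 pooled peaks. The optimal set consists of the strongest pooled peaks, so this is a statement about strength. It does not set the members apart from divergent pairs. Among summits at these distances, 638 of 835 optimal ones (76.4%) were non-divergent, against 1653 of 1889 other pooled ones (87.5%). Summits between divergent pairs were thus in the optimal set more often than members. Each replicate's top peaks were taken as its strongest ones, as many as the optimal set holds. Applied to these, the rule found 608, 610 and 650 peaks (622.7 ± 23.7, SD, n = 3). The median pooled signal of the members was 303.4, with quartiles of 207.7 and 491.5, against medians of 281.3 at core promoters, 281.0 at divergent pairs, 245.0 downstream of the TSS and 231.4 far from any TSS. Among the members 163 (25.5%) were in the 500 strongest optimal peaks, against 51 of 232 core promoter peaks, 21.8% of divergent, 19.0% of downstream and 10.4% of far peaks. Pooled signals carry no replicate error, so these differences were not tested on that scale.

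Within the range that the rule allows, members were more numerous in the nearer 100 bp bins. Their median signal was higher up to 300 bp than beyond. There were 212, 195, 140 and 91 members in the successive 100 bp bins, a median of 257 bp upstream, and their median signals were 322.9, 321.2, 279.6 and 252.4. The other pooled peaks under the same rule were spread more evenly, at 479, 455, 403 and 316. In replicates 1, 2 and 3 the nearest bin held 34.7%, 34.9% and 30.9% of the peaks (33.5 ± 2.25%, SD, n = 3), and the farthest held 10.9%, 13.1% and 13.7%. In replicate 3 the bin from 201 to 300 bp held slightly more than the nearest, at 31.4%. The fullest 25 bp, from 176 to 200 bp upstream, held 69 members, and the last, from 476 to 500 bp, held 8.

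**Figure D1:**
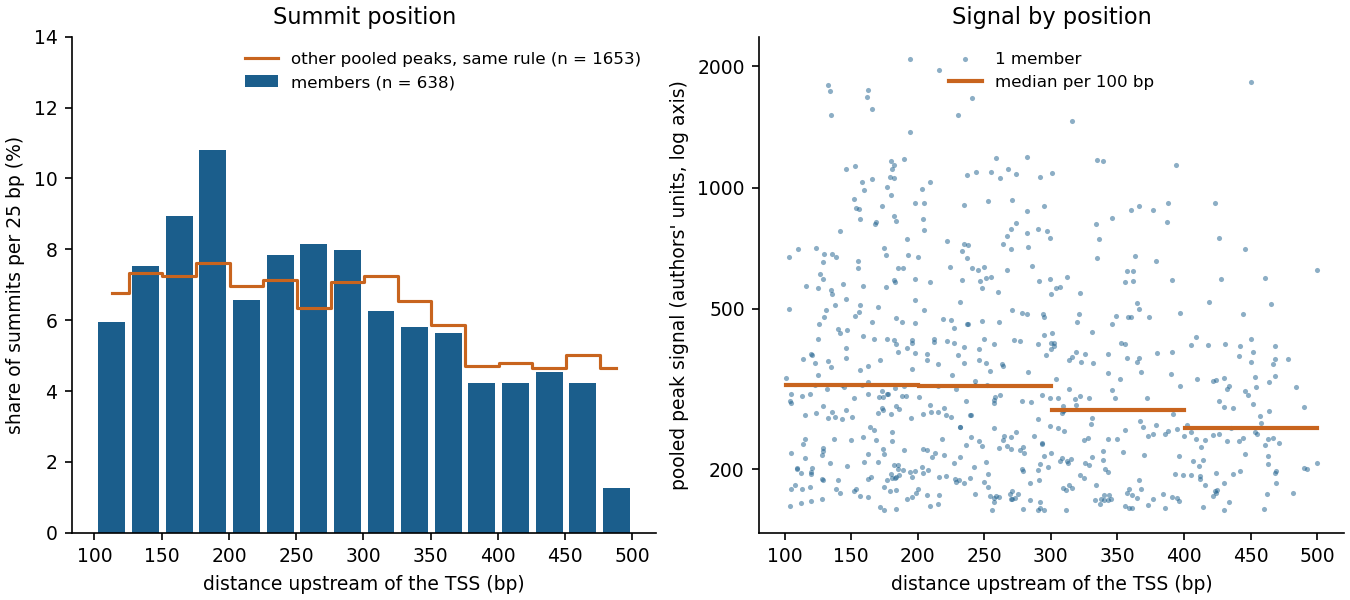
Left, share of summits in 25 bp steps of distance upstream of the TSS for the 638 members (bars) and the 1653 other pooled peaks under the same rule (line). Right, pooled signal of each member on a log axis against its distance, with the median per 100 bp as orange lines, which fall from 322.9 in the nearest bin to 252.4 in the farthest.

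The limits of the rule did not fall at a step in signal. The 9 members within 5 bp of the near limit had signals from 161.5 to 671.1 (median 295.8), and the 9 peaks just outside it, which count as core promoter, had 185.7 to 2569 (median 338.1). The strongest of the latter was CG14100 at 97 bp, above every member, and eIF6 at 96 bp had 1178. At the far limit the members were by (500 bp, signal 625.0) and hebe (500 bp, 207.1), and the peaks outside were CG3961 (501 bp, 422.0) and CG42336 (503 bp, 352.0).

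Support for the members was similar in the 3 replicates, which was not so at core promoters and divergent pairs. A summit was counted as supported when it lay inside one of a replicate's top peaks. Support in all 3 replicates was found for 451 members (70.7%, exact 95% binomial interval 67.0 to 74.2%), against 60.4% of all optimal peaks, and 140 were supported in 2 replicates, 45 in 1 and 2 in none. The optimal set was itself chosen by how well ranks repeat, so the share is read only against that background. By replicate, 85.1%, 90.8% and 87.1% of members were supported in replicates 1, 2 and 3. Core promoter peaks had 87.1%, 93.5% and 69.4%, and divergent peaks 90.9%, 90.4% and 67.0%.

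The gap to these classes thus came from replicate 3, the only replicate in which core promoter and divergent peaks were less often supported than members by more than 1 percentage point. Members minus core promoter peaks came to 4.34 ± 11.6 percentage points (SD, n = 3), which did not exceed the spread between replicates (two-sided exact sign-flip permutation test, p = 1). The smallest p that 3 replicates allow in this test is 0.25. Against peaks downstream of the TSS the difference was 6.47 ± 2.11 points and had the same sign in 3 of 3 replicates (exact sign-flip permutation p = 0.25). Replicate 3 also held fewer core promoter and divergent peaks among its top peaks, at 217 and 127 against 308 and 253 in replicate 1, while its 650 members were the most of any replicate. What sets replicate 3 apart was not tested.

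The order of the peaks gave the same picture. Placing each optimal peak by its rank in a replicate, with 0% the strongest and 100% the weakest, the median member stood at 37.1%, 36.4% and 36.3%. The median core promoter peak stood at 33.2%, 38.1% and 48.7%, and the median divergent peak at 38.2%, 38.2% and 57.9%. Members minus core promoter peaks was -3.41 ± 8.30 (exact sign-flip permutation p = 0.75), with the core promoter peaks ahead in replicate 1 and behind in replicates 2 and 3, and it became 1.17 without replicate 2 when only peaks supported in both other replicates were kept. Members minus downstream peaks was -11.5 ± 1.44, negative in 3 of 3 replicates (exact sign-flip permutation p = 0.25, the smallest possible).

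**Figure D2:**
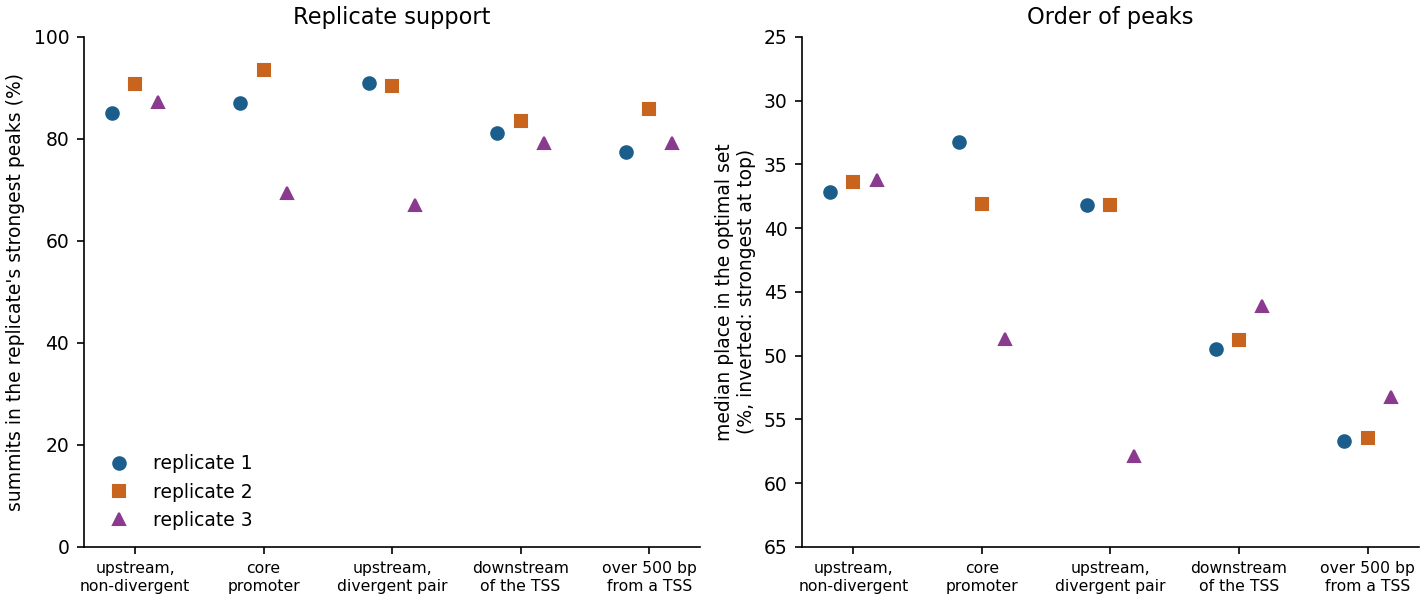
Left, share of summits of each class that lay in the top peaks of each replicate; right, median place of the class in the optimal set by the replicate's own ranks, with the axis inverted so that stronger classes are higher. Each point is 1 replicate, and the triangle of replicate 3 falls away from the others for core promoters and divergent pairs but not for the upstream, non-divergent members.

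Support followed signal. All 3 replicates supported 96.9% of the 160 strongest members, 95.6% and 71.1% of the next sets of 159, and 19.4% of the weakest 160. The pooled signal comes from the alignments of the same replicates, so this trend is in part built in. At any rank, 610 members (95.6%) lay in a peak of every replicate, close to the 96.1% of all optimal peaks. Of the 28 that did not, 15 had a summit of the replicate that missed them within 500 bp. Among these were l(2)k01209, a second peak of brwl, CG31635, prage and Sesn, the 5 members with the largest spread of places. In each, the replicate without a peak over the summit had one of its own summits 26 to 105 bp away (ranks 59, 107, 252, 109 and 295), and the spread arose because the summit fell outside the border of that neighbouring peak.

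The member summits sat in a narrow trough of GC content. In windows of 201 bp the mean GC content was 33.6% over the 638 members, 40.6% in windows centred 500 bp farther upstream and 45.1% in windows centred 500 bp toward the gene. With the rule applied to each replicate, the summit windows held 33.2%, 33.3% and 34.4%. The difference to the upstream window was -7.18 ± 0.53 percentage points and that to the downstream window -11.5 ± 0.71 (SD, n = 3), each of the same sign in 3 of 3 replicates and larger than the spread (exact sign-flip permutation p = 0.25 for each, the smallest possible).

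The trough was deeper than position upstream of a TSS alone gave. The 1653 other pooled peaks under the same rule had 37.3%, and 46195 windows placed at the same distances upstream of all non-divergent protein-coding TSSs had 38.9%. The mean over all optimal peaks was 35.1%, and over those farther than 500 bp from any protein-coding TSS it was 35.4%. Low GC content was thus largely shared with the rest of the optimal set. GC content was below both neighbouring windows at 429 members (67.2%), against 49.5% of the other pooled peaks and 47.3% of the promoter windows. Members minus core promoter peaks was -3.88 ± 0.55 points and members minus divergent peaks 2.59 ± 0.18 points, each in 3 of 3 replicates (exact sign-flip permutation p = 0.25 for each). Distance did not order it: the 4 bins had 34.1%, 33.5%, 33.0% and 33.5%, against 39.4%, 38.2%, 38.6% and 39.3% in the promoter windows. Nor did strength, with 33.4%, 33.2%, 33.1% and 34.6% from the strongest to the weakest members. Single members ranged from 18.4% to 63.7%. Base composition can alter both sequencing yield and peak calling against a control, and its part in this trough was not tested.

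**Figure D3:**
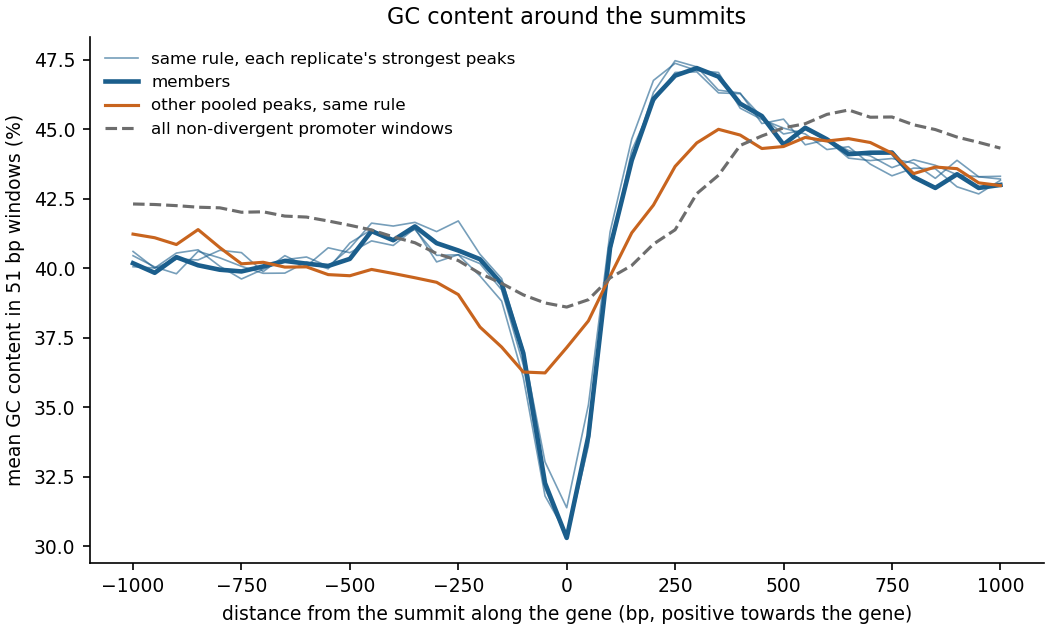
Mean GC content in 51 bp windows from 1000 bp upstream to 1000 bp downstream of the summit, read along the gene, for the members (thick line), the rule applied to each replicate (thin lines), the other pooled peaks under the rule and all non-divergent promoter windows. The member line falls to 30.3% at the summit and rises to 47.2% at 300 bp toward the gene, while the other pooled peaks are at 37.1% and the promoter windows at 38.6% at the summit.

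A/T-only runs and TATA-like letters were common in the same windows. A run of at least 10 bases was present at 522 members (81.8%, exact 95% interval 78.6 to 84.7%), in 52.7% of the upstream and 42.9% of the downstream neighbouring windows, and in 60.4% of the promoter windows. Across replicates the summit exceeded the neighbouring windows by 33.6 ± 0.65 points in 3 of 3 (exact sign-flip permutation p = 0.25). Divergent peaks had such a run more often, at 90.9%, and core promoter peaks less often, at 71.1%. The share over all optimal peaks was 75.7%. The run length was chosen after the low GC content was seen, and a run of this kind follows from low GC content. These runs may mix A and T. AAAAAAAA, on either strand, was at 14.6% of members, against 14.9% of all optimal peaks and 11.9% of the promoter windows. TATAAA, the letters of a strong TATA box, was found at 261 members (40.9%), against 29.3% of the promoter windows, 27.3% upstream and 12.9% downstream. It was not particular to the members, with 37.8% over all optimal peaks, 53.3% at divergent peaks and 36.2% at core promoter peaks. A match is to letters, and for the members nearest to the TSS the window reaches the usual place of a TATA box.

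GAGAG, the element of GAGA factor, was not more frequent at the summits than beside them, but it was frequent on their shoulders. In the 201 bp windows it was found at 172 members (27.0%), against 29.6% and 27.6% in the neighbouring windows and 23.3% of the promoter windows, and the difference over replicates was -0.51 ± 3.24 points (exact sign-flip permutation p = 1). The width of the window decided this value: summit minus neighbours was -5.02 points with 50 bp on each side and 7.13 points with 150 bp. In the 201 bp windows GAGAG was at 18.1% of core promoter peaks, 13.2% of divergent peaks and 22.7% of all optimal peaks. Members minus core promoter peaks was 9.60 ± 1.76 points over the replicates (exact sign-flip permutation p = 0.25, the smallest possible). In 51 bp windows the share dipped at the summit, where 5.33% of members had the element, between shoulders at 150 bp, where 14.4% had it upstream and 16.8% toward the gene.

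In the replicates the mean of the shoulders exceeded the summit by 10.7, 11.7 and 11.1 points (11.2 ± 0.52, 3 of 3, exact sign-flip permutation p = 0.25). The same difference was 1.09 points at the other pooled peaks, 0.14 points in the promoter windows, 1.72 points at core promoter peaks and 5.84 points at divergent peaks. GAGAG lay 75 to 225 bp from the summit on at least 1 side at 369 members (57.8%), against 37.0% of the other pooled peaks and 32.9% of the promoter windows. It was not computed for the other classes of optimal peaks. The share fell from 76.9% of the strongest 160 members to 58.5%, 47.2% and 48.8% in the weaker sets. GC content was 39.4% at the upstream shoulder and 43.9% at the downstream one, against 30.3% at the summit, and 39.5% and 40.1% in the promoter windows. The part of base composition in the dip was not tested, and the profile was drawn for 7 sequences after the data were seen.

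**Figure D4:**
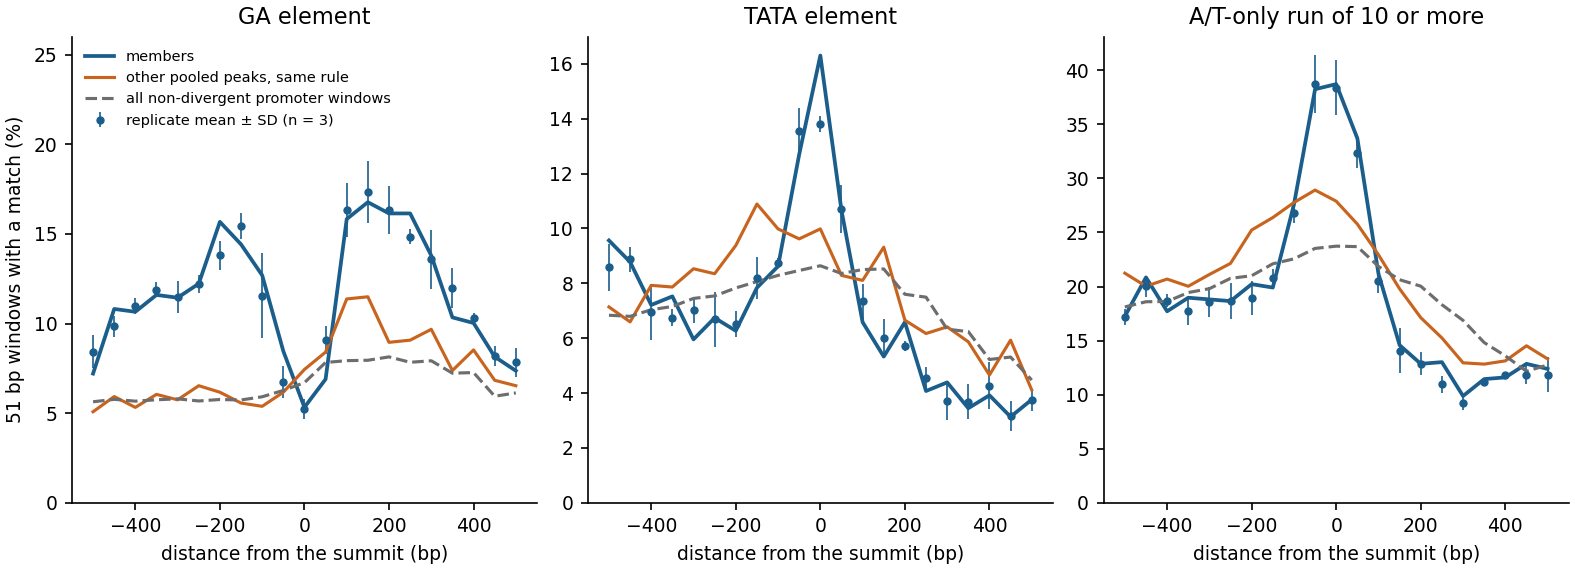
Share of 51 bp windows with a match against distance from the summit (positive toward the gene) for the GA element, the TATA letters and A/T-only runs of at least 10 letters, on linear axes of different height. Points with bars are the mean ± SD of the rule applied to 3 replicates; the GA element dips to 5.33% at the member summits between shoulders of 14.4% and 16.8%, whereas the member lines of the other panels are highest at the summit.

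The elements of broadly expressed core promoters were nearly absent. The DRE (TATCGATA), bound by DREF, was found at 5 members (0.78%), against 30 of 232 core promoter peaks (12.9%), 7.61% of divergent peaks and 1.04% of the promoter windows. Motif 1 (GGTCACAC), bound by M1BP, was found at 1 member (0.16%) and at 17 core promoter peaks (7.33%). The shorter CGATA was at 22.3% of members and 46.1% of core promoter peaks, and CAGCTG, an E-box, at 6.27% and 14.7%. Members minus core promoter peaks was -9.83 ± 0.77 points for the DRE, -5.53 ± 1.53 for Motif 1, -21.0 ± 4.48 for CGATA and -10.0 ± 2.06 for CAGCTG, with the same sign in 3 of 3 replicates (exact sign-flip permutation p = 0.25 for each). Relative to the promoter windows, where the DRE and Motif 1 are rare, the members did not stand out.

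GC-rich elements were also less frequent than in the promoter windows: GCCAT, the core of Pho sites, was at 22.9% against 30.5%, and GGGCGG, bound by Sp and KLF factors, at 1.88% against 5.44%. CACACACA was at 2.19% of summits and 11.6% of the downstream neighbouring windows. The cAMP response element TGACGTCA and CCTAGCAAC, the X-box core bound by human NFX1, were in none of the 638 windows (upper limit of the exact 95% interval 0.58% for each). They were also rare in the promoter windows, at 0.37% and 0.048%, and under the rule in single replicates they reached up to 0.62% and 0.16%, so their absence was not distinguishable from the background. Matches of all 23 sequences searched, on both strands, are descriptions of letters and do not show which factor is bound.

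Most members lay outside other annotated exons. The summit was intergenic at 308 members (48.3%), in an intron at 270 (42.3%), in a 5′ UTR at 27, in another exon at 20, in a 3′ UTR at 12 and in coding sequence at 1. It fell inside the span of its own gene, upstream of an internal TSS, at 263 (41.2%), against 24.1% of core promoter peaks and 12.7% of divergent peaks. The nearest TSS was the most upstream one of its gene at 375 (58.8%), and 229 members (35.9%) belonged to a gene with 1 annotated TSS. A non-coding gene started within 1000 bp and was transcribed away at 31 members (4.86%), so few had a non-coding divergent partner.

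The next protein-coding gene upstream lay within 1000 bp at 147 members (23.0%), the median distance was 2921 bp, and that gene was on the same strand at 357 members (56.0%). The rule, which removes divergent neighbours, sets these values in part, and they are given as a description. Another optimal summit lay within 1000 bp at 149 members (23.4%), against 15.9% of core promoter, 12.2% of divergent and 18.5% of downstream peaks. The count for the members includes summits whose peak intervals are the same or overlap. The gene of a member was also nearest to a core promoter peak at 12 members (1.88%) and to a downstream peak at 23 (3.61%), and the gene of a core promoter or divergent peak was also nearest to a downstream peak at 0.86% and 1.02%. The members were spread over the arms, with 127 on 2L, 119 on 2R, 116 on 3L, 141 on 3R, 3 on 4 and 132 on X, which were 16.9% (3L) to 22.8% (X) of the optimal peaks of each large arm.

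Several genes carried more than 1 member. A single member lay at 508 genes and more than 1 at 61. Ptpmeg2, a protein tyrosine phosphatase, Rtnl1, a reticulon of the endoplasmic reticulum, and dnc, a cAMP phosphodiesterase, had 4 each, and Moe, which links actin to the membrane, and spi, the main EGF receptor ligand, had 3 each. Within a gene the strengths differed: the peaks of Ptpmeg2 had signals from 187.8 to 1179, those of Rtnl1 from 215.8 to 1081 and those of dnc from 200.4 to 839.6. Members of 1 gene share that gene, and peaks near each other may share fragments, so they are not independent. Among the members, 6 had the same start and end as another optimal peak, as at Sesn. Other intervals overlapped, as at papi and by. Such summits were counted as separate members, so these counts are not counts of separate binding sites.

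Among 9516 protein-coding genes with a non-divergent upstream stretch, 569 (5.98%) were the nearest gene of a member. Genes known only by a CG number were 30.8% of the member genes and 46.8% of these 9516. In 20 gene lists, 39 member genes appeared. No enrichment test was made, and genes with more TSSs had more chances to hold a member.

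Glycolysis had the highest share of the lists, with 6 of 12 eligible genes (exact 95% interval 21.1 to 78.9%), and the rule found 6 in each of the 3 replicates. It was singled out after the values of all lists were seen. Gapdh2 (rank 20 in the pooled list) and Hex-A (rank 41), which opens the pathway by phosphorylating glucose, were the strongest. Hex-A ranked 73, 41 and 21 in replicates 1, 2 and 3. Eno, the enolase, lay 142 bp from its peak with a signal of 779.1 and ranks 227, 183 and 226, and Ldh, lactate dehydrogenase, lay 176 bp away with 681.1 and ranks 371, 256 and 239. Pgk, phosphoglycerate kinase (254 bp, 350.6), was less even, at ranks 2061, 968 and 634, and PyK, pyruvate kinase (392 bp, 273.6), ranked 1216, 1541 and 1518. All 6 were thus within the top peaks of every replicate. The other 6 eligible genes, Ald1, Ald2, Hex-C, Pfk, Pglym87 and Tpi, had no optimal peak within 500 bp. None of the 15 listed genes was the nearest gene of an optimal core promoter, divergent or downstream peak. When only the most upstream TSS of each gene was used, 3 glycolysis genes had a member.

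The 20 lists were set side by side with no adjustment for their number. In the mesoderm and heart list 5 of 25 eligible genes (exact 95% interval 6.83 to 40.7%; 3, 4 and 4 genes in replicates 1, 2 and 3) had a member: tin, the heart homeodomain factor (signal 518.7 at 232 bp, ranks 587, 532 and 463), rols, which acts in myoblast fusion (319.8), stumps, an adaptor of FGF signalling (241.1), htl, an FGF receptor, and so, a Six-family factor. In the neural list 6 of 33 did (18.2%, 6.98 to 35.5%; 5, 7 and 5 genes in the replicates), led by elav, the neuronal RNA-binding protein (1092 at 255 bp, ranks 94, 97 and 60), E(spl)m3-HLH, a Notch target (751.2 at 426 bp), and numb, a Notch inhibitor (589.9 at 233 bp). The others were neur, E(spl)m7-HLH and fne. Muscle proteins had 4 of 22 (Msp300, sls, TpnC47D and Tm1), and signal transduction 5 of 38 (spi, sgg, foxo, shn and pnt). Of these, spi (822.0 at 169 bp) and sgg, the GSK3 kinase of Wnt signalling (782.4 at 205 bp), were the strongest. The segmentation list had 1 of 27 (nkd), and the ecdysone response list had 0 of 18. The upper limits of their exact 95% intervals were 19.0% and 18.5%, so neither was shown to be below the 5.98% of all eligible genes. The intervals of the muscle list (5.19 to 40.3%) and the signal transduction list (4.41 to 28.1%) also include 5.98%. The intervals cover the counting of genes only. Those of the mesoderm and neural lists begin at 6.83% and 6.98%, close to 5.98%. They were not recomputed for other choices of listed genes, such as the mesoderm list without so.

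The remaining lists held at most 3 member genes each. Cytosolic ribosomal protein genes had 3 of 40 eligible (RpLP2, RpL27A and RpS3, signals 372.9, 200.3 and 161.5), whereas 40 of the 92 listed genes were nearest to a core promoter peak. None of 45 oxidative phosphorylation, 30 translation factor, 15 mitochondrial ribosomal protein, 8 insulator or 5 spliceosome genes had a member. The upper limits of their exact 95% intervals were 7.87%, 11.6%, 21.8%, 36.9% and 52.2%, so none was shown to be below the 5.98% of all eligible genes. None of 152 chemoreceptor genes had one (upper limit 2.40%), and 1 of 103 cuticle protein genes did (Cpr65Av, 166.3). Chaperones had 2 of 20 (Hsp27 with 888.8 and Hsp22 with 184.8), actins and tubulins 2 of 14 (Act5C and Act87E), vesicle transport 2 of 43 (Syx4 and Rab5), the proteasome 1 of 26 (Rpn11), and the Polycomb and Trithorax group 1 of 16 (ph-p), while 6 of the 32 listed genes of that group were nearest to a downstream peak.

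**Figure D5:**
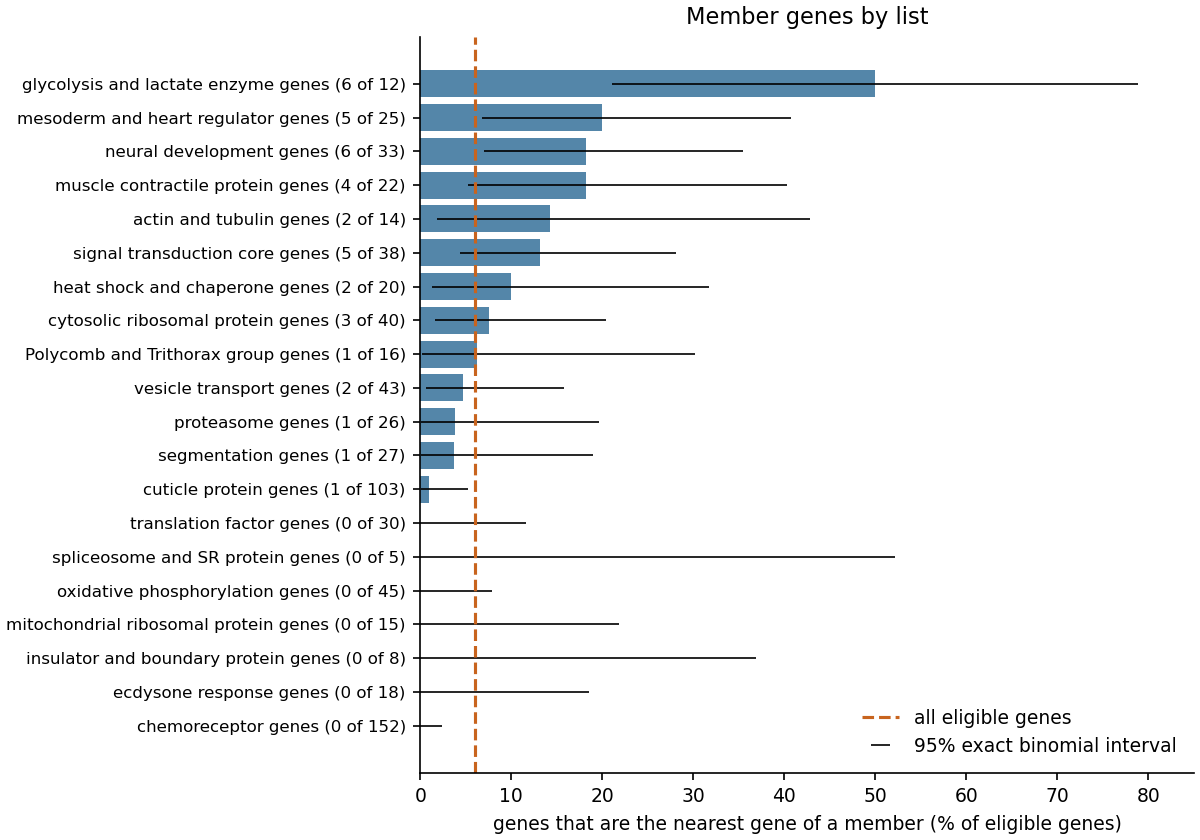
Share of the eligible genes of each of 20 lists that are the nearest gene of a member, with exact 95% binomial intervals as black lines and the 5.98% of all eligible genes as a dashed line. Glycolysis reaches 6 of 12 genes, the mesoderm list 5 of 25 and the neural list 6 of 33, while 7 lists are at 0.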

How the data were processed

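ChIP-seq peak lists of 3 replicates were used. Per the labels, coordinates are dm6. Per the labels and the deposited notes, each replicate's list was called on its own alignment against a control, a pooled list on all 3, and the optimal set came from these by a threshold on irreproducible discovery rate. Aligner, caller, versions and that threshold were not given in the sources used here. Column 7 of the deposited lists is the authors' signal per peak, and the deposited −log10 q-value only broke ties. Signal was compared only within a list. Read depth is unknown, and exact binomial intervals cover counting of peaks or genes only.

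TSSs came from Ensembl release 115 and sequence from RefSeq; 1 member's sequence that the selection would show is not reported here. Summits were classified by distance and divergent partner. Replicate support, motif shares and GC content were computed in Python 3.11.15 with SciPy 1.17.1 and plotted with matplotlib 3.10.9. The rule was applied again to each replicate's strongest peaks, as many as the optimal set holds, for means, SDs and exact two-sided sign-flip permutation tests over 3 replicates. Promoter windows lie at 155, 255, 355 and 455 bp upstream and some overlap. Named genes are the 25 strongest members, the 3 strongest of each distance bin and gene list, those within 5 bp of a limit, the 5 with the largest spread and the 3 weakest; other gene names were added after their values were seen. The labels call the samples biological replicates and do not say how embryos were collected, so p-values measure only the spread between these samples. Summit classes and planted motifs were tested on simulated data, and all were recovered. The members, 20 gene lists and 23 motifs were chosen with earlier results of these data known; 23 list symbols matched no gene, and the spliceosome list was corrected after its values were seen. A/T-only runs, the glycolysis comparison, the GAGAG shoulders and windows 1000 bp away were added after seeing the data. Alternatives are described with the limits.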

Additional observations from a re-analysis of the deposited data

How the results depend on the processing

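Of 125 values recomputed under 18 alternatives, 90 were counted as unchanged, 34 moved and 1 changed sign. Unchanged meant within the replicate spread, within a tolerated range for counts, or of the same sign for order differences. These last limits were wide. Counts of 483 members (main 638) and 4 glycolysis genes (main 6) passed as unchanged, as did an order difference of -9.45 (main -3.41). The stronger 50% of the optimal peaks gave 396 members, 36.1% of them in the nearest 100 bp, a median signal of 420.1, support of 93.7% and a GAGAG shoulder excess of 15.3 points. The most upstream TSS of each gene gave 409 members, 37.2% in the nearest 100 bp, GAGAG at 22.2%, a GC difference to the neighbouring windows of -10.4 points (main value -9.27) and 3 glycolysis genes. Support was 89.0% with 200% as many top peaks per replicate, 47.3% with 50% as many, and 57.4% when peaks had to overlap by 50% of both lengths. Windows of 50 and 150 bp each side gave GAGAG at 10.8% and 45.9%, summit minus neighbours of -5.02 and 7.13 points (main -1.65), GC differences of -11.7 and -7.00, and A/T-only runs at 62.5% and 88.7%. Neighbouring windows at 1000 bp gave 3.13 points for GAGAG and -8.02 for GC. Shoulders at 100 bp gave 8.93 points, and the peak midpoint 11.4. Leaving out each replicate, which also kept only peaks supported in both others (483 to 512 members), gave median signals of 365.9 to 375.7, support of 75.7 to 80.3%, shoulder excesses of 12.5 to 12.9 points and order differences to core promoters of -2.93 to 1.17, reversed (1.17) without replicate 2. The GC difference stayed below 0 in 13 of 13 values and the shoulder excess above 0 in 12 of 12. No paired analysis was possible because there is 1 group. The cause of each shift was not tested where the alternative does not itself change the set or window. Depth is unknown, so weak members cannot be separated from undersampled ones.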
